A study of Arabidopsis thaliana with 12 samples.

Results

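The response of CsPYL1-5m seedlings to iSB09 is described over the Arabidopsis genes that reached 1 TPM in each of the 3 replicates of the mock or of the iSB09 group. TPM is transcript abundance corrected for transcript length and scaled to the same total in every library. This gave 19862 genes of the 37336 in the table, of which 557 passed only through the iSB09 samples and 728 only through the mock samples. iSB09 is a synthetic agonist of abscisic acid (ABA) receptors, and CsPYL1-5m is a sweet orange receptor altered in its ligand-binding pocket. The CsPYL1-5m plants were homozygous T3 progeny of WT Col-0 carrying HA-tagged CsPYL1-5m under the 35S promoter in the pAlligator2 vector, and they kept the receptors of Arabidopsis itself. The 35S promoter is known to be active in most tissues. Each treatment group held 3 replicates, which the study describes as independent experiments, and received either 5 μM iSB09 or DMSO as mock for 3 hours. The WT groups, Col-0 seedlings with the same treatments and also 3 replicates each, enter only where the responses of both genotypes are set side by side. Seedling age is 12 days of liquid culture in the labels and 10 days in the methods of the study. The transcript of CsPYL1-5m itself was not analysed here.

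ABA receptors of the PYR/PYL family close around their ligand and then bind and inhibit clade A protein phosphatases (PP2Cs). Inhibition of these phosphatases frees the SnRK2 kinases, which phosphorylate bZIP transcription factors of the ABF and ABI5 family. These factors bind ABA-responsive elements in promoters and turn on genes of desiccation tolerance, osmolyte synthesis and cuticle formation. In seedlings the hormone is also known to restrain growth and to close stomata.

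Depth, recovered from the deposited values, was 25746048 to 30696830 reads on genes in the 6 CsPYL1-5m libraries, and a gene of 1000 bases at 3 reads would have had 0.158 to 0.193 TPM. Across genes, log2 values of libraries from the same treatment correlated at 0.99 to 0.995, and those of different treatments at 0.860 to 0.880. The first principal component separated the treatments and held 92.8% of the variance. Markers of green tissue and of root were both present, with 72204 to 75210 summed TPM for the nuclear photosystem genes and 831 to 909 for the root hair genes in mock samples, whereas the seed storage genes summed to 6.72 to 7.40 TPM. Most of the seed storage sum came from SESA3, at 4.81, 6.03 and 5.91 TPM, a gene listed at 0 in WT. Changes in these whole seedlings can come from fewer cells of a type or from less RNA per cell, which cannot be told apart. The p-values set the difference between the means of these 3 samples and 3 samples against the spread among replicates. The estimate of this spread borrows from all genes tested.

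iSB09 up-regulated 1821 genes, 9.17% of those tested, and down-regulated 1659 genes, 8.35%. A call required an adjusted p below 0.05 and a change of more than 2-fold, with limma on log2(TPM + 0.5) and Benjamini-Hochberg adjustment over all genes tested. The adjusted p alone was passed by 13179 genes, 66.4% of the genes tested. In 5170 genes (26.0%) every iSB09 sample lay above every mock sample, and in 9103 genes (45.8%) every iSB09 sample lay below. The increases reached farther than the decreases. More than 8-fold increases were found in 309 genes and more than 32-fold increases in 91 genes, against 67 and 5 genes for decreases of these sizes. Among the genes that increased, 304 had a mock mean under 1 TPM, so their fold changes depend on the pseudocount of 0.5. The genes that decreased were moderately expressed before treatment, with a median of 16.8 TPM under mock and 5.41 TPM under iSB09, and the genes that increased had medians of 7.12 and 32.0 TPM.

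TPM values share a fixed total, so that strong increases lower the values of other genes. The genes called up held 3.74%, 3.99% and 3.60% of all TPM in the mock samples and 16.5%, 18.4% and 18.8% in the iSB09 samples. The genes called down fell from 7.73% to 2.65% of all TPM on average, and the genes without a call went from 88.3% to 79.3%. These shares describe genes chosen by the same values. The median log2 fold change over all genes tested was -0.16, and after median-ratio scaling, which sets the median gene to the same level in each library, it was -0.0045. Scaled values gave 2150 genes up (10.8%) and 1208 genes down (6.08%). Scaling added 329 genes to those up and removed 451 from those down, and no gene changed direction. The share of calls that were increases was 52.3% on TPM and 64.0% after scaling. The fold changes of single genes given here are those of TPM as deposited.

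**Figure D1:**
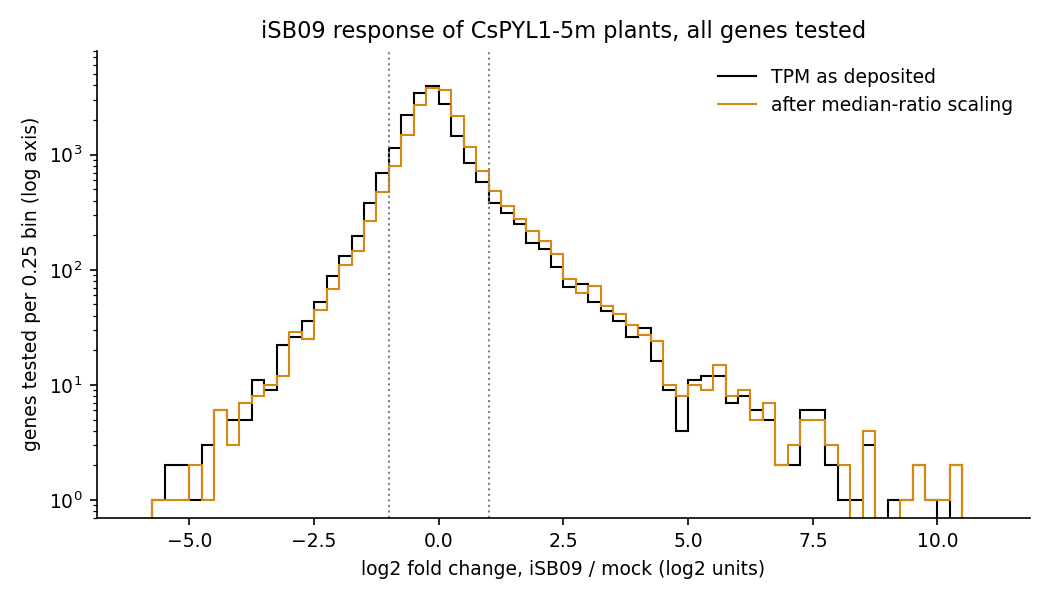
Number of genes tested per bin of log2 fold change (iSB09 / mock, bins of 0.25, log vertical axis) in CsPYL1-5m plants, on TPM as deposited (black) and after median-ratio scaling (orange), with dotted lines at -1 and 1. The scaled distribution lies slightly to the right of the TPM distribution, and the right tail extends past 10 while the left tail ends near -5.7.

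The 10 largest increases were in genes with low levels under mock, 4 of them from the LEA and dehydrin list. LEA4-5, a late embryogenesis abundant (LEA) protein of dehydrating tissue, was listed at 0, 0.433 and 0.592 TPM in the mock samples and at 682, 801 and 838 TPM in the iSB09 samples (log2 fold change 9.92 ± 0.25, SE). AT3G02480, which encodes another LEA family protein, had 1.15, 0.102 and 1.36 TPM under mock and 1279, 1611 and 1714 TPM under iSB09. AT3G03341, annotated as cold-regulated, had 0, 0 and 0.379 TPM under mock and 685, 904 and 857 TPM under iSB09, but it overlaps AT3G03340 and counting did not use the strand. In each of these genes the mock samples were at or near 0 and the iSB09 samples lay far above them. TSPO, a membrane protein of the tryptophan-rich sensory protein family, went from a mean of 0.138 ± 0.031 to 455 ± 57.3 TPM (SD, n = 3). SAG29, the sugar transporter SWEET15, went from 1.72 ± 0.24 to 810 ± 59.3 TPM, with 742, 841 and 847 TPM in the iSB09 samples. RD20, a calcium-binding caleosin of lipid droplets, was uneven under mock at 1.82, 7.91 and 0.767 TPM and stood at 969, 1103 and 1222 TPM under iSB09. The remaining genes of the 10 largest increases were RD29B, LEA7, AT3G17520 and the phosphatase gene HAI1, all with log2 fold changes above 8.5.

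The 10 largest decreases included 2 ABA receptor genes, PYL6 and PYL4. The receptor PYL6 had 36.1, 35.7 and 35.5 TPM under mock and 0.336, 0.0702 and 0.241 TPM under iSB09 (log2 fold change -5.68 ± 0.14). CRK30, a cysteine-rich receptor-like kinase, fell from 39.3, 43.8 and 39.1 TPM to 0.582, 0.195 and 0.529 TPM. GSTF14, a phi class glutathione transferase, fell from 65.6, 56.4 and 75.4 TPM to 1.59, 1.99 and 0.869 TPM. None of these groups overlapped. The acyltransferase gene AACT1 fell from 48.7 ± 15.6 to 1.07 ± 0.64 TPM, and AT1G27020 fell from 466 ± 122 to 18.7 ± 3.17 TPM. PYL4, AT1G15125, PP2-A5, AT2G17740 and AT1G05700 completed the 10 largest decreases, and AT1G15125 overlaps a neighbouring gene.

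The promoters of the extreme genes were read for the ABA-responsive element, searched as ACGTGNC on both strands, because this is the element bound by the ABF and ABI5 factors. The sequences are the 250 bases before the annotated transcript start in TAIR10.1 (RefSeq), written in the direction of transcription, with every match on either strand in capitals. None of these windows holds another annotated gene. RD29B (chr5:21236771-21237020, plus strand) had 3 matches, which began 63, 38 and 10 bases before the start. LEA4-5 (chr5:2090431-2090680, minus strand) had 2 matches, 67 and 53 bases before the start, and MAPKKK18 (chr1:1469291-1469540, plus strand) had 1, 209 bases before it. HAI1 (chr5:23896940-23897189, minus strand) had none in this window, although it rose by 8.51 on the log2 scale. The receptor genes PYL4 (chr2:16049668-16049917, plus strand) and PYL6 (chr2:16846195-16846444, minus strand), which were among the 10 largest decreases, had none either. In all, 9.70% of the promoters of genes tested held a match in the same 250 bases.
RD29B: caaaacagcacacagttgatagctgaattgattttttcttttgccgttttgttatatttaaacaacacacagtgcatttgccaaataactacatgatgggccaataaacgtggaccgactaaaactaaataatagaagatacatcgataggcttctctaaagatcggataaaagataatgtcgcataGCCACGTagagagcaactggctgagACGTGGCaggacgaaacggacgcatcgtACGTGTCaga
LEA4-5: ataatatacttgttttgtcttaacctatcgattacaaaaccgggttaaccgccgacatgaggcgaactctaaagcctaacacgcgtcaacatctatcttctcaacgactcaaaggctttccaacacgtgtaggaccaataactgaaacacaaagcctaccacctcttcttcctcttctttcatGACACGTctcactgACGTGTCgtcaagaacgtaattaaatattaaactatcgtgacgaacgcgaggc
MAPKKK18: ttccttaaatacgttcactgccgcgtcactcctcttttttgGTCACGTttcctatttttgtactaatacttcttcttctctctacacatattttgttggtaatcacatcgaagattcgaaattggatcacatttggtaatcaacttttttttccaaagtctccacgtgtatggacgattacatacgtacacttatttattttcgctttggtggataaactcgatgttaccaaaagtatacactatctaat
HAI1: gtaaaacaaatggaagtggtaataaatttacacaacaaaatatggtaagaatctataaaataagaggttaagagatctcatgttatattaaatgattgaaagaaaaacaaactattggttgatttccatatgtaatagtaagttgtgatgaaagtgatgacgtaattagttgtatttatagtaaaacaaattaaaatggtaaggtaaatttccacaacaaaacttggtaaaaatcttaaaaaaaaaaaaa
PYL4: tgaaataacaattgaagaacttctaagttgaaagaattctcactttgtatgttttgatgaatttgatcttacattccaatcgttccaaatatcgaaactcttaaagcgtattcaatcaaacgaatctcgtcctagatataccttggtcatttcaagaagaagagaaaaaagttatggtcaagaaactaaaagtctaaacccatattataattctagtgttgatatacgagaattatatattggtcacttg
PYL6: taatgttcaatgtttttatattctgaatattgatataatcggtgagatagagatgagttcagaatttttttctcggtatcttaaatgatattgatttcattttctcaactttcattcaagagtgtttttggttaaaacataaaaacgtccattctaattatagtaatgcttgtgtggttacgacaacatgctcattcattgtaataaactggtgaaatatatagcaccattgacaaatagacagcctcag

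In windows of 250 bases before to 50 bases after the start, the ABA-responsive element was found in 464 of 1820 promoters of up-regulated genes (25.5%), in 87 of 1658 promoters of down-regulated genes (5.25%) and in 2321 of 19734 promoters of genes tested (11.8%). The share was 36.9% (114 of 309) in genes that rose more than 8-fold. The G-box CACGTG, which overlaps the element where both share bases, was found in 19.8%, 4.28% and 8.99% of these promoters, and the core ACGTG, contained in both, in 47.0%, 23.0% and 28.2%. The 10 largest changes in each direction were read only in the 250 bases before the start. In this shorter window the element was in 21.2% of promoters of up-regulated genes and 9.70% of all promoters. It was in 31.7% of promoters of genes that rose more than 8-fold. Of the 10 genes with the largest increase, LEA4-5, RD29B, LEA7 and AT3G17520 held the element there and 8 held the core. Of the 10 with the largest decrease, none held the element there and 1 held the core. A match is a run of letters and not a bound site, and no test was made of these shares.

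**Figure D2:**
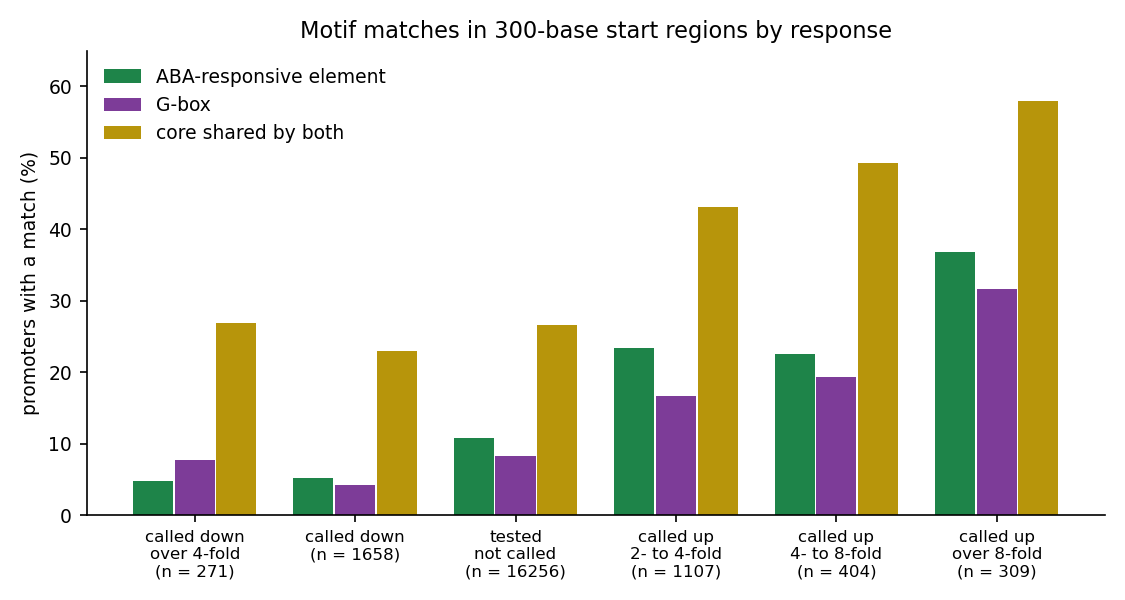
Percent of promoters (250 bases before to 50 after the start, both strands) with a match to the ABA-responsive element, the G-box or their shared core, for genes grouped by their response to iSB09; the number of promoters is under each group, and the group of all genes called down contains the group that fell more than 4-fold. The element was found in 36.9% of promoters of genes that rose more than 8-fold and in 5.25% of promoters of genes that fell.

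Receptor transcripts fell while transcripts of the phosphatases they inhibit rose. Of the 14 ABA receptor genes, 9 were tested, and 7 were down-regulated and none up-regulated (median log2 fold change -1.65 against -0.16 over all genes tested, and -1.48 against -0.0045 after scaling). PYL4 had 349, 402 and 364 TPM under mock and 10.6, 7.21 and 10 TPM under iSB09, a log2 fold change of -5.26 ± 0.13. PYR1 fell from 84.8 ± 6.1 to 15.4 ± 0.444 TPM, and PYL5 from 66.0 ± 1.9 to 5.19 ± 0.839 TPM. The summed level of the 14 receptor genes, 672, 722 and 677 TPM under mock, was 93.2, 77.5 and 81.2 TPM under iSB09. PYL8 and PYL1 also fell, PYL2 fell on TPM but had no call after scaling, and PYL9 and PYL7 had no call on either scale.

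All 9 clade A PP2C genes were up-regulated on both scales, with a median log2 fold change of 4.74, although 4 of them passed the filter only through the iSB09 samples. These phosphatases hold the SnRK2 kinases inactive in the absence of ABA. HAI1 rose from 0.298, 0.572 and 0.246 TPM to 288, 330 and 320 TPM, and HAI2 from 0.111, 0.293 and 0.0561 TPM to 132, 153 and 165 TPM. HAI3 rose from 0.0600 ± 0.041 to 73.5 ± 8.63 TPM. ABI2 rose from 3.22, 3.97 and 2.98 TPM to 160, 180 and 192 TPM. ABI1, the most abundant of them, rose from 41.5 ± 0.43 to 434 ± 8.11 TPM (log2 fold change 3.37 ± 0.06) and overlaps AT4G26070. The summed PP2C level was 89.7 to 95.2 TPM under mock and 1755 to 1991 TPM under iSB09. The summed phosphatase level was thus below that of the Arabidopsis receptor genes in every mock sample and above it in every iSB09 sample. This holds on the TPM scale, which corrects for transcript length. The receptor sum leaves out the transcript of CsPYL1-5m, which was not analysed.

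**Figure D3:**
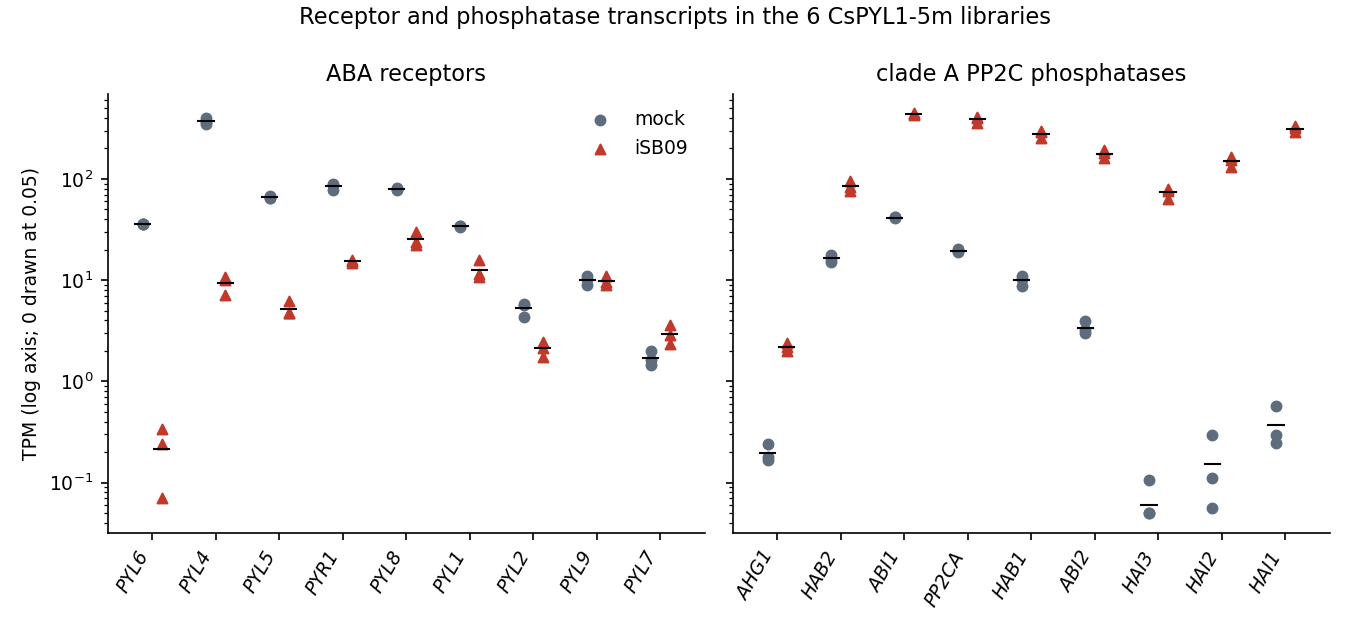
TPM (log axis, values of 0 drawn at 0.05) of the 9 ABA receptor genes tested and the 9 clade A PP2C genes in each of the 6 CsPYL1-5m libraries, with circles for mock, triangles for iSB09 and lines for group means. The receptor genes fell by up to -5.68 on the log2 scale (PYL6) and the phosphatase genes rose by up to 8.51 (HAI1), and the groups of PYL9 and PYL7 lay close together.

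Genes of the kinases and transcription factors that act below the phosphatases rose in part. Of the 10 SnRK2 genes, 3 were up-regulated and none down-regulated. SNRK2.7 went from 2.53, 2.44 and 2.6 TPM to 82.7, 93.4 and 107 TPM (log2 fold change 4.96 ± 0.10), and OST1, the kinase of guard cell ABA signaling, from 13.4 ± 0.61 to 47.5 ± 4.25 TPM. SNRK2.2, the most abundant, had 130 ± 15 TPM under mock and 123.3 ± 9.13 TPM under iSB09 and no call. Of the 8 genes of ABF and ABI5 bZIP factors, 7 were tested and 4 rose, and 5 after scaling. ABF3 had 15.7, 17.5 and 18.3 TPM under mock and 239, 275 and 297 TPM under iSB09, and ABI5, a regulator of germination, went from 0.832 ± 0.18 to 10.11 ± 2.46 TPM. ABF3 and ABF4 overlap other genes. All 4 AFP genes, which encode ABI5-binding repressors, rose, led by AFP3 from 5.01 ± 0.79 to 279 ± 27.3 TPM and AFP1 from 5.31 ± 0.75 to 264 ± 17.3 TPM, the latter overlapping AT1G69270. In the MAP kinase cascade of ABA signaling, 3 of 6 genes tested rose. MAPKKK18, whose promoter is shown above, went from 0.709, 1.37 and 0.916 TPM to 133, 144 and 148 TPM, a log2 fold change of 6.59 ± 0.14. MAPKKK17 went from 2.57, 3.66 and 1.98 TPM to 39.5, 45.6 and 52.0 TPM, and MPK7 from 21.3 ± 2.7 to 85.2 ± 2.5 TPM.

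Genes of ABA synthesis and of ABA breakdown rose together. NCED3, the dioxygenase of the committed step of synthesis, had 0.542, 0.675 and 0.607 TPM under mock and 12.6, 16.3 and 15.9 TPM under iSB09 (log2 fold change 3.79 ± 0.13). ABA1 and AAO3 rose too, so that 3 of the 6 synthesis genes tested of 10 were up and none down. All 4 CYP707A genes, the ABA 8'-hydroxylases that inactivate the hormone, rose, with CYP707A1 from 7.80, 10.4 and 8.22 TPM to 161, 177 and 194 TPM. UGT71C5, which conjugates ABA to glucose, fell from 32.4 ± 3.5 to 11.2 ± 0.542 TPM and was the 1 gene down among 7 tested of 8. Of the 4 ABA transporter genes, the exporter gene ABCG25 rose from 10.2 ± 0.41 to 35.5 ± 2.66 TPM, and NPF4.6 had 68.9 ± 3.9 and 35.5 ± 1.9 TPM and missed the fold threshold.

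Genes of dehydration proteins rose together. Of 32 LEA and dehydrin genes, 26 were tested, 11 of them passing the filter only through the iSB09 samples, and 21 rose and none fell (median log2 fold change 4.26, and 4.43 after scaling). ERD10, a dehydrin already expressed under mock, had 182, 202 and 170 TPM there and 3063, 3682 and 4090 TPM under iSB09. AT3G17520, a LEA family gene, rose from 0.0829, 0.0438 and 0.210 TPM to 308, 369 and 402 TPM, and LEA7, which overlaps AT1G52695, rose from 0.786 ± 0.55 to 936 ± 122.6 TPM. In each of these genes the iSB09 samples lay far above the mock samples, and iSB09 replicate 1 was the lowest of the iSB09 samples. The summed level of the 32 genes was 2480 to 2882 TPM under mock and 20873 to 25616 TPM under iSB09, which is 2.36% of all TPM. KIN1 and KIN2 belong to this list and are nearly identical, so the division of reads between them is uncertain. EM1, a LEA gene of dry seeds listed at 0 in every mock library, stood at a mean of 4.86 TPM under iSB09, at least 27.7-fold higher than the level of 3 reads per library.

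All 11 genes of the RD29 group of cold and drought markers rose, 2 of them having passed only through iSB09. RD29B had 0.195, 0.129 and 0.271 TPM under mock and 455, 636 and 704 TPM under iSB09 (log2 fold change 9.73 ± 0.15), and RD29A had 43.6, 45.4 and 31.7 TPM and 2652, 3157 and 3329 TPM. COR413-PM1, a plasma membrane protein gene, was the most abundant up-regulated gene, at 331, 348 and 298 TPM under mock and 4263, 4888 and 5025 TPM under iSB09. In the HVA22 family, 2 of 9 genes tested rose, HVA22D from 55.5 ± 6.2 to 502 ± 27.9 TPM and HVA22B from 0.0865 ± 0.098 to 22.1 ± 3.8 TPM. The 8 oleosin and caleosin genes and the 9 seed storage genes, of the embryo, were mostly not expressed. None of the 3 tested among these 8 oleosin and caleosin genes was called by limma, and 2 had an adjusted p below 0.05 but missed the fold threshold. These were CLO4 and OLEO4, with log2 fold changes of -0.43 and -0.84. The caleosin gene RD20, counted in the RD29 group, was among the 10 largest increases. The 1 seed storage gene tested, SESA3, had 5.59 ± 0.67 TPM under mock and 3.34 ± 0.729 TPM under iSB09 without a call. In WT its mean was 0 TPM in the mock and in the iSB09 group, and the cause of this difference was not tested.

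P5CS1 of proline synthesis and the galactinol synthase genes GOLS2 and GOLS4 rose strongly. P5CS1, the first enzyme of proline synthesis, had 19.9, 18.8 and 18.9 TPM under mock and 733, 855 and 879 TPM under iSB09 (log2 fold change 5.38 ± 0.08), with the limit that it overlaps AT2G39795. ERD5, the proline dehydrogenase that degrades proline, fell from 81.8 ± 14 to 33.6 ± 3.86 TPM. In this group of 8, P5CS2 was the other gene called up. P5CR, another enzyme of proline synthesis, went the other way, from 144 ± 12.3 to 88.5 ± 4.29 TPM. Its log2 fold change was -0.70, and -0.53 after scaling, without a call. GOLS2, a galactinol synthase, had 0.0368, 0.0778 and 0 TPM under mock and 58.7, 73.2 and 83.9 TPM under iSB09, and GOLS4, which overlaps AT1G60460, rose from 0.818 ± 0.26 to 66.6 ± 3.93 TPM. In the raffinose and galactinol group 6 of 9 genes tested of 13 rose and 2 fell (1 after scaling), among them DIN10, a raffinose synthase family gene, from 74.5 ± 18 to 31.4 ± 4.57 TPM.

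BAM1, the beta-amylase of starch breakdown under osmotic stress, rose from 26.2, 24.3 and 21.4 TPM to 301, 340 and 345 TPM, and 3 of 12 starch breakdown genes rose in all. Of 21 genes of trehalose phosphate synthases and phosphatases, 17 were tested, 11 rose and 1 fell. TPS11 rose from 3.62 ± 0.7 to 48.3 ± 4.07 TPM, and ATTPPA, a phosphatase gene that overlaps AT5G51465, fell from 27.1 ± 2.7 to 10.05 ± 0.266 TPM. In the SWEET sugar transporter family, 6 of 12 genes tested of 17 rose and 1 fell. SWEET4 went from 0.956, 1.1 and 0.925 TPM to 44.4, 53.6 and 53.9 TPM, and SWEET16, a vacuolar member, fell from 19.6 ± 5 to 4.76 ± 0.425 TPM.

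Genes that build the cuticle rose as a group. Of 17 wax genes, 16 were tested, 14 rose and 1 fell, with a median log2 fold change of 1.73 (1.89 after scaling). CER1, an enzyme of alkane formation, had 6.64, 9.89 and 10.7 TPM under mock and 204, 257 and 248 TPM under iSB09, and CER6, which elongates very long chain fatty acids, rose from 183 ± 11 to 716 ± 86 TPM. MYB96, a transcription factor that activates wax synthesis, rose from 11 ± 0.36 to 99.0 ± 14.1 TPM, and the gene that fell was MYB30, another MYB regulator of very long chain fatty acids, from 17 ± 0.89 to 5.41 ± 0.535 TPM. Of 6 lipid transfer protein genes 3 rose. LTP3 had 4.81, 4.36 and 2.57 TPM under mock and 587, 809 and 882 TPM under iSB09, LTP4 rose from 1.14 ± 1.1 to 294 ± 60.5 TPM, and LP1, the most abundant, had 1261 and 2085 TPM and no call.

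Water and ion transport changed in single genes. Of 34 aquaporin genes, 27 were tested, 4 rose and 2 fell, and scaling brought the number that rose to 6. The plasma membrane aquaporin PIP2A rose from 338, 319 and 342 TPM to 954, 1106 and 987 TPM, and NLM1 of the nodulin-like class fell from 50 ± 6.8 to 9.44 ± 0.676 TPM. The list for guard cell channels, pumps and oxidases held 13 genes, of which 12 were tested, among them PKT4, a thiolase gene that is not of this class and had no call. GORK, the potassium efflux channel of guard cells, rose from 5.23, 5.53 and 4.80 TPM to 39.8, 44.1 and 48.2 TPM, and the anion channel gene ALMT12 rose from 6.37 ± 1.3 to 22.7 ± 1.57 TPM. RBOHD, an NADPH oxidase, fell from 44.2 ± 1.2 to 13.7 ± 1.18 TPM. The inward potassium channel KAT2 and the proton pump AHA2 fell on TPM with log2 fold changes of -1.09 and -1.05 and had no call after scaling. Related genes without a call went in different directions. The potassium channel genes KAT1 and AKT1 had log2 fold changes of 0.78 and -0.56, and the pump genes AHA1 and AHA5 of 0.08 and -0.27. In the stomatal lineage, the peptide gene EPF2 was the 1 gene down and none of 11 tested rose.

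Transcription factor families split by family. In the group of stress and senescence NAC factors 9 of 11 rose and none fell, with a median log2 fold change of 2.84. NAC019 had 3.49, 6.48 and 3.81 TPM under mock and 235, 222 and 228 TPM under iSB09, NAP, a regulator of leaf senescence, rose from 2.14 ± 0.16 to 107 ± 14.3 TPM, and RD26 from 7.25 ± 0.6 to 375 ± 39.2 TPM. Among HD-Zip class I genes 5 of 14 tested of 17 rose, with HB-7 from 12.6, 17.7 and 13.3 TPM to 632, 708 and 760 TPM and HB-12 from 6.31 ± 0.72 to 306 ± 33.7 TPM, and HB52 fell. Among MYB and MYC factors of drought 6 of 10 tested of 11 rose and 1 fell, the latter without a call after scaling. MYB102 was at 0.0378, 0.0400 and 0.0383 TPM under mock and at 43.4, 46.5 and 65.2 TPM under iSB09. MYC2 was listed at 0, and whether its transcript was absent was not tested.

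Of 12 DREB, CBF and related AP2 genes, 11 were tested, 5 of them only through the iSB09 samples, and 8 rose and none fell. DREB2A, which overlaps AT5G05420, rose from 5.28, 6.87 and 4.66 TPM to 60.8, 71.2 and 75.4 TPM. CBF4, a drought-responsive member of the CBF family, was listed at 0 in all mock samples and at 5.10, 5.79 and 4.98 TPM under iSB09. HSFA6B, a heat shock factor, had 1.44, 2.09 and 1.52 TPM under mock and 352, 408 and 442 TPM under iSB09 (log2 fold change 7.53 ± 0.12), and 6 of 18 heat shock factor genes tested of 21 rose and none fell. Among the NF-YA subunits of the CCAAT-binding complex, 3 of 10 rose and 1 fell, with NF-YA1 from 15.2 ± 0.43 to 72.3 ± 3.08 TPM. WRKY factors went both ways, with 8 of 51 tested of 69 up and 9 down. WRKY49 fell from 28.4, 35.8 and 22.2 TPM to 1.94, 1.68 and 1.52 TPM, and WRKY75, a senescence regulator, rose from 1.71 ± 0.97 to 10.3 ± 1.76 TPM. Of 11 JAZ repressor genes of jasmonate signaling tested of 12, 3 rose and 2 fell, with JAZ4 from 22.9 ± 3.5 to 4.66 ± 0.441 TPM.

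Genes of leaf senescence rose within the 3 hours. Of 11 genes of chlorophyll breakdown and senescence, 10 were tested, 7 rose and none fell. NYE1, which removes magnesium from chlorophyll, had 9.81, 9.08 and 8.53 TPM under mock and 74.2, 69.2 and 71.1 TPM under iSB09, and NYE2 rose from 1.59 ± 0.82 to 12.7 ± 1.04 TPM. SAG13 was uneven under mock, at 3.37, 22.4 and 2.82 TPM, with replicate 2 well above the other 2 samples, and had 31.8, 28.7 and 37.4 TPM under iSB09. Of 27 autophagy genes, 26 were tested, 8 rose and none fell, with a median log2 fold change of 0.56. In 22 of the 26 all iSB09 samples lay above all mock samples, against 26.0% of all genes tested. ATG8E rose from 24.9 ± 3.1 to 97.9 ± 1.53 TPM and G18F, an ATG18 family gene, from 8.12 ± 0.17 to 34.3 ± 0.976 TPM. Of 16 clock genes 5 rose and 1 fell on TPM (none fell after scaling), and CCA1, a morning factor, went from 3.15, 2.61 and 3.80 TPM to 16.4, 19.4 and 19.0 TPM.

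**Figure D4:**
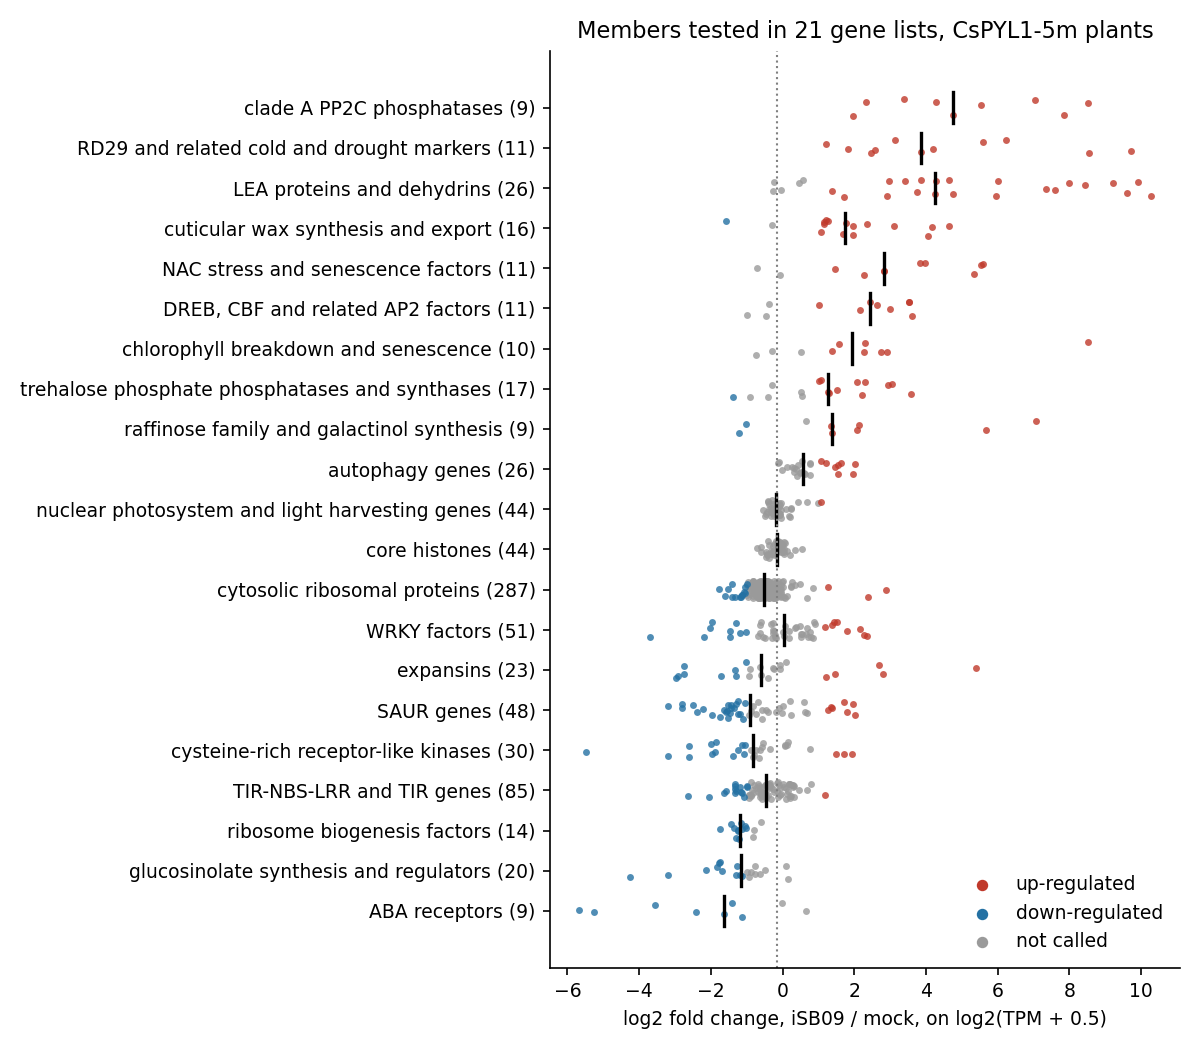
Log2 fold change (iSB09 / mock, on log2(TPM + 0.5)) of each member tested in 21 gene lists, in red for up-regulated, blue for down-regulated and grey for not called; black bars are list medians, the dotted line is the median over all genes tested (-0.16), and the number tested is in parentheses. The lists run from the PP2C genes (median 4.74) to the ABA receptors (median -1.65), and the photosystem and histone lists sit at the overall median.

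Among cell wall and auxin genes of growth, decreases outnumbered increases for the SAUR genes and the expansins but not for the XTH genes. Of 80 SAUR genes, 48 were tested, 7 rose and 23 fell (21 after scaling), with a median log2 fold change of -0.91, and 16 had passed only through the mock samples. AT4G34770 fell from 23.4, 21.4 and 22.8 TPM to 3.09, 1.77 and 1.41 TPM, and AT1G72430, the most abundant SAUR gene, from 153 ± 16 to 52.1 ± 2.7 TPM. Expansins, which loosen walls, were mixed, with 5 of 23 tested of 38 up and 8 down. EXPA1 fell from 111, 83.3 and 102 TPM to 15, 12.8 and 14.4 TPM, whereas EXPA16 rose from 4.56, 3.62 and 3.63 TPM to 178, 183 and 188 TPM. Among the XTH genes of xyloglucan remodelling 3 of 28 tested of 33 rose and 3 fell. These shares lie near the 9.17% up and 8.35% down of all genes tested. XTH31 fell from 399 ± 2 to 48.8 ± 7.83 TPM.

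Auxin carrier genes fell in part, with 5 of 11 tested of 12 down and none up, and 2 down after scaling. The influx carrier gene LAX3 fell from 52.4, 64.1 and 52.0 TPM to 16.1, 13.8 and 13.4 TPM on both scales, and the calls of AUX1, LAX1 and PIN7 were lost. Of 33 Aux/IAA and GH3 genes tested of 42, 3 rose and 3 fell, near the 9.17% up and 8.35% down of all genes tested. DFL1, a GH3 enzyme that conjugates auxin, rose from 25.3 ± 1.2 to 194 ± 17 TPM. Type-A cytokinin response regulators had 1 gene up and 3 down of 8 tested of 10, with ARR7 from 43.4 ± 6.6 to 11.7 ± 1.03 TPM. GA2OX6, a gibberellin-inactivating oxidase, rose from 5.96, 5.36 and 6.14 TPM to 44.7, 54.8 and 57.7 TPM, and 1 gene fell on TPM but not after scaling among 7 gibberellin oxidases tested of 17. CYP90D1 of brassinosteroid synthesis fell from 10.7 ± 0.45 to 1.39 ± 0.23 TPM and was the 1 call among 10 genes, which include the receptor gene BRI1. In ethylene synthesis 1 gene rose and 3 fell of 7 tested of 13, with the oxidase gene ACO1 from 32.8 ± 7.2 to 8.05 ± 1.07 TPM.

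The cell cycle and chromatin were little changed. Of 30 cyclin and B-type CDK genes tested of 34, 1 rose and 2 fell, and CYCD3;1, a G1 cyclin that overlaps AT4G34150, fell from 34.2 ± 2.4 to 13.9 ± 1.85 TPM. None of 44 core histone genes tested of 51 was called by limma. Their median log2 fold change of -0.17 lay at that of all genes. An unadjusted p below 0.05 (limma) was found in 21 of the 44, against 13780 of all 19862 genes tested.

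Ribosome assembly genes fell as a group, and most ribosomal protein genes lay lower by less than the 2-fold change that a call required. Of 14 ribosome biogenesis factors, 11 fell and none rose (7 fell after scaling), and the median log2 fold change was -1.18 (-1.02 after scaling). In every one of the 14 all iSB09 samples lay below all mock samples, against 45.8% of all genes tested. The list also held MTA, an mRNA methylase gene, without a call. FIB2, a fibrillarin and thus an enzyme that methylates ribosomal RNA, had 211, 227 and 251 TPM under mock and 77.2, 68.6 and 60.8 TPM under iSB09, and overlaps AT4G25631. NUC-L1, a nucleolin, fell from 685 ± 15 to 328 ± 11.7 TPM with no call after scaling. Of 287 cytosolic ribosomal protein genes tested of 318, 3 rose and 14 fell (4 and 8 after scaling). In 238 of the 287 all iSB09 samples lay below all mock samples on TPM, against 45.8% of all genes tested. The median of the 287 was -0.53 on TPM and -0.37 after scaling. RPSAb, which encodes a protein of the small subunit and overlaps AT3G04780, fell from 36.7 ± 2.5 to 10.4 ± 0.604 TPM. The 3 that rose, AT1G53560, AT3G14595 and AT5G15260, entered the list through their annotation as L18ae or L34e family genes, and AT1G53560 overlaps AT1G53550.

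Photosynthesis genes stayed at the median of all genes. Of 44 nuclear photosystem genes tested of 45, the light harvesting gene LHB1B1 rose, from 743, 690 and 738 TPM to 1427, 1462 and 1682 TPM, none fell, and the median log2 fold change was -0.18 (-0.01 after scaling). Of 13 Calvin cycle genes, RBCS1B, a small subunit gene of Rubisco, fell from 683, 447 and 743 TPM to 268, 196 and 181 TPM, while RBCS1A had no call. Chloroplast-encoded genes had 1 call in each direction of 100 tested of 133, and mitochondria-encoded genes had none by limma of 27 tested of 152. The medians were -0.05 and 0.03, respectively. Of the 27 mitochondria-encoded genes, 2 had an unadjusted p below 0.05 (limma), against 13780 of all 19862 genes tested. Of 13 root hair genes 1 fell and none rose. Of 8 genes often used as references, none was called by limma on TPM, and 1 rose after scaling. All 8 had an adjusted p below 0.05 and missed only the fold threshold, from UBQ10 at 0.89 to GAPC2 at -0.69 on the log2 scale. Their median log2 fold change was -0.32 (-0.16 after scaling).

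Among genes of immune receptors and of glucosinolate synthesis, decreases outnumbered increases. Of 44 cysteine-rich receptor-like kinase genes, 30 were tested, 3 rose and 13 fell (10 after scaling), with a median log2 fold change of -0.82. CRK29, which overlaps other genes, fell from 60.9, 78.3 and 70.6 TPM to 7.19, 6.09 and 8.53 TPM. Of 131 genes of TIR-NBS-LRR and TIR proteins, 85 were tested, 1 rose and 15 fell (10 after scaling), and RLM3 fell from 89.3 ± 5.1 to 36.6 ± 6.56 TPM. Of 11 salicylic acid and PR defense genes, none of 10 tested was called by limma. An unadjusted p below 0.05 (limma) was found in 4 of the 10, against 13780 of all 19862 genes tested. PDF1.2 varied within groups, at 15.7, 48.2 and 10.52 TPM under mock.

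Of 20 genes of glucosinolate synthesis, 11 fell and none rose, with a median log2 fold change of -1.17. IMS2, which elongates methionine for aliphatic glucosinolates, had 182, 189 and 209 TPM under mock and 8.60 to 10.2 TPM under iSB09 (log2 fold change -4.26 ± 0.09), and MYB28, an activator of this pathway, fell from 107, 111 and 110 TPM to 25.0, 22.6 and 26.7 TPM. CYP83B1 fell on TPM with no call after scaling. In the flavonoid pathway 2 of 12 genes tested of 13 rose and 1 fell, against 5 and 1 after scaling, and PAP1, the anthocyanin activator, had 1.43, 3.52 and 1.73 TPM and 14.9, 11.5 and 27.0 TPM. Among phi and tau glutathione transferases 5 of 34 tested of 42 rose and 4 fell, with GSTU9 from 14.2 ± 2.8 to 134 ± 13.8 TPM. Among class III peroxidases 6 of 55 tested of 70 rose and 11 fell, with Prx37 from 199 ± 44 to 16.3 ± 1.37 TPM, and the gene of the largest increase, DOX1, is known as an alpha-dioxygenase. In nitrate uptake the high-affinity transporter gene NRT2:1 fell from 48.9, 43.1 and 29.2 TPM to 2.15, 1.34 and 0.764 TPM, and the dual-affinity transporter gene NRT1.1 from 345 ± 48 to 144 ± 12.9 TPM, with 1 gene up among 9 tested of 13.

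Where no scaled count is given beside a function list, median-ratio scaling moved the number of genes up or down in a list by at most 2, as for the WRKY factors (10 up and 8 down), the phi and tau glutathione transferases (7 and 3) and the class III peroxidases (8 and 9).

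Set against WT, the same treatment gave 448 genes up (2.28%) and 302 down (1.54%) of 19612 genes tested in Col-0. The difference between both responses, fitted in all 12 samples with an interaction term, was higher in CsPYL1-5m plants for 1211 of 20081 genes (6.03%) and lower for 722 (3.6%), so that 62.6% of the called differences were higher. The median difference was -0.16 on TPM and -0.0074 after median-ratio scaling of the 12 samples, which gave 1489 genes higher and 466 lower, 76.2% of them higher. Without replicate 3 of every group, 880 genes were higher and 446 lower. The CsPYL1-5m libraries held 25746048 to 30696830 reads and the WT libraries 21502001 to 21754259, so depth and genotype cannot be told apart in this difference. All 9 PP2C genes, 20 of the LEA genes and 10 of the RD29 group had the higher response in CsPYL1-5m plants, as did all 4 AFP genes, and these counts were the same after scaling. Without replicate 3 the counts for the LEA genes and the RD29 group were 17 and 8. RD29B changed by 9.73 in CsPYL1-5m plants and 2.65 in WT on the log2 scale, a difference of 7.08 (adjusted p = 5.4e-08, limma), and HAI2 by 7.86 and 2.51 (difference 5.35, adjusted p = 2.9e-08, limma).

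Among the groups that fell, 13 of the cysteine-rich receptor-like kinase genes, 15 of the TIR genes and 9 of the glucosinolate genes had the lower response in CsPYL1-5m plants, against 10, 14 and 5 after scaling and 7, 8 and 8 without replicate 3. WRKY49 had a log2 fold change of -3.70 in CsPYL1-5m plants and of 0.75 in WT, the latter without a call, a difference of -4.45 (adjusted p = 0.00021, limma). None of the 14 ribosome biogenesis genes had a called difference on TPM. On this scale 12 of them had an adjusted p below 0.05 for it (limma), all with the lower response in CsPYL1-5m plants, and missed the fold threshold. The share of all genes that passed this adjusted p alone is not given here, so these 12 cannot be set against it. FIB2 differed by -0.86 (adjusted p = 0.0029, limma), where the median difference over all genes was -0.16. Of the 14 genes, 11 were down in CsPYL1-5m plants and 1 in WT. All of them had a negative log2 fold change in WT too, from -0.17 (MTA) to -1.31 (NUC-L2), and only NUC-L2 passed the fold threshold there. FIB2 had -0.88 in WT (adjusted p = 0.0064, limma). Of the 8 type-A response regulators, none had a called difference on TPM and 1 after scaling, and 3 were down in each genotype. An adjusted p below 0.05 for the difference on TPM (limma) was found in 4 (2 higher and 2 lower), again without a share of all genes beside it. JAZ4 changed by -2.18 and -2.16 and TIP2;2 by 1.26 and 1.34 in CsPYL1-5m plants and WT, with adjusted p of 0.96 and 0.89 for the difference (limma), which does not show that the responses are equal.

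**Figure D5:**
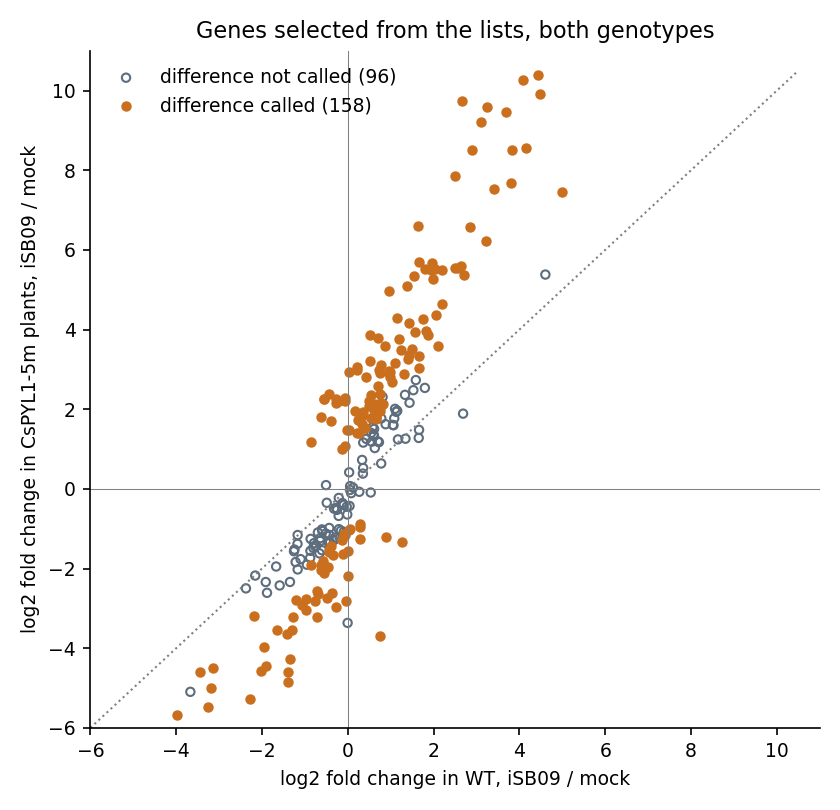
Log2 fold change (iSB09 / mock) in CsPYL1-5m plants against that in WT for the 254 named genes tested in both genotypes, filled where the difference between the responses was called (158) and open where it was not (96); the dotted line marks equal responses. The genes were selected by their values in CsPYL1-5m plants, so their distance from the line describes this selection too; WRKY49 is the filled point near 0.75 in WT and -3.7 in CsPYL1-5m plants.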

How the data were processed

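Whole seedlings were measured by paired-end RNA sequencing. Per the methods of the study, the authors trimmed reads with cutadapt, mapped them to TAIR10 with HISAT2 and used HTSeq-count for unstranded counts of Araport11 genes, discarding pairs that mapped to several places. The authors' own test was made with DESeq2 and is not used here. The deposited TPM values were made by the authors from these counts, and TPM were the measure analysed here. The deposited RPKM values, also made by the authors from the same counts, served as an alternative and to recover depth, by multiplying RPKM with the annotated exon length, which gave whole reads for about 70% of the detected genes in a library. No column was left unmatched to a sample.

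Genes that reached 1 TPM in each replicate of either CsPYL1-5m group were tested on log2(TPM + 0.5) with limma 3.58.1 in R 4.3.3 (variance trend, Benjamini-Hochberg adjustment over all genes tested), and called where the adjusted p was under 0.05 and expression changed by more than 2-fold. The difference from WT used the same model with an interaction term over 12 samples. The test was checked on simulated data. Median-ratio scaling divided each library by the median of its ratios to the geometric mean library. Overlapping genes are named as such, since reads of both strands were counted together.

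The members and the 62 function lists were chosen with earlier results of these data known. In each list, up to 4 called genes per direction with the largest change, no overlap of the groups and at least 5 TPM in the higher group could be named, with the most abundant member, and over all genes the 10 largest changes in each direction. PYL1, PYL2, PYL7, PYL8, PYL9, EM1, KIN1, KIN2, MYC2 and the genes of the closing section were named after their values were seen. The same holds for P5CR, OLEO4, KAT1, AKT1, AHA1, AHA5, PKT4, MTA, NUC-L2, UBQ10 and GAPC2, which the rule above does not select.

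The labels number the replicates 1 to 3 in each group. Same-numbered mock and iSB09 samples deviated from their group means with correlations of 0.12, -0.023 and -0.14, so the numbers were not treated as pairs. Alternatives were other pseudocounts, filters, scalings, the RPKM table, no variance trend, no fold threshold, a replicate block, a single model of 12 samples and each library left out, and, chosen after seeing the data, limma-voom on recovered reads and genes that overlap no other gene. Promoters were read from the RefSeq TAIR10.1 genome, whose nuclear chromosomes have the lengths of TAIR10.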

Additional observations from a re-analysis of the deposited data

Results flagged for a closer look

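The responses of CsPYL1-5m plants and WT to iSB09 differed, by the interaction term over 12 samples, in 1211 genes that responded higher and 722 genes that responded lower in CsPYL1-5m plants. Of the 265 named genes, 3 had a called difference and iSB09 samples that all lay on one side of the mock samples in CsPYL1-5m plants and all on the opposite side in WT. Genes whose WT samples overlapped, as those of WRKY49, are not counted here.

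AFP2, a gene of an ABI5-binding repressor, had 5.91, 5.94 and 4.87 TPM under mock and 18 to 20 TPM under iSB09 in CsPYL1-5m plants, against 5.44, 4.57 and 5.95 TPM and 3.81, 3.64 and 4.33 TPM in WT. The log2 responses differed by 2.09 (adjusted p = 4.2e-06, limma), and the gene overlaps AT1G05033 and AT1G13750. AT4G12410, a SAUR gene, had 1.38 to 1.7 TPM under mock and 6.05 to 7.23 TPM under iSB09 in CsPYL1-5m plants, against 1.25 to 1.66 TPM and 0.420 to 1.18 TPM in WT, a difference of 2.44 (adjusted p = 7.2e-05, limma). AT1G72920, a TIR gene, had 5.32 to 6.51 TPM under mock and 1.44 to 2.38 TPM under iSB09 in CsPYL1-5m plants, against 3.84 to 5.83 TPM and 9.31 to 14.5 TPM in WT, a difference of -2.59 (adjusted p = 4.8e-05, limma). Of these 3, AT1G72920 was called in both genotypes, and AFP2 and AT4G12410 were not called in WT. The CsPYL1-5m libraries were all deeper than the WT libraries, and the part of depth in these differences was not tested.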

How the results depend on the processing

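The numbers of genes up and down in CsPYL1-5m plants stayed within 1.5 times 1821 and 1659 under every alternative except the one without a fold threshold, which gave 4772 up and 8407 down. Leaving out each library gave 1781 to 1919 up and 1568 to 1738 down, and 0 genes had a call opposite to the one reported in any setting. With the replicate block, 1822 genes were up and 1663 down, the differences from WT were 1211 higher and 738 lower, and all 265 named genes kept their calls. In the difference from WT, the number of genes lower was 466 with median-ratio scaling and 480 with the replicate block and median-ratio scaling, and leaving out a replicate gave 446 to 778 lower and 880 to 1295 higher. The lowest counts were those without replicate 3, and the cause was not tested. With only bases upstream of the start, 21.2% of the promoters of up-regulated genes and 9.70% of all promoters held the ABA-responsive element, by construction of the shorter window. Of the 265 named genes, 247 kept their call in every setting in which they were fitted, apart from the one without a fold threshold, under which 19 of the 28 named genes without a call would have one. The setting without overlapping genes held 215 of them. Median-ratio scaling ended 12 calls, all decreases close to the fold threshold, and gained JAZ1. On 13823 genes that overlap no other gene 1381 were up and 1272 down, and limma-voom on recovered reads called 1914 and 1983. Levels under 3 reads per library, which is 0.158 to 0.193 TPM for a gene of 1000 bases and less for a longer gene, were not measurable.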

Other observations

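Several of the most abundant responding transcripts lie outside the function lists. Among those that rose, ADC2, the arginine decarboxylase of polyamine synthesis, had 359, 433 and 318 TPM under mock and 1296, 1446 and 1567 TPM under iSB09. FER1, a plastid ferritin that stores iron, rose from 334 ± 7.64 to 1100 ± 46.1 TPM and overlaps AT5G01595, and RD19, a papain-type protease, rose from 458 ± 40 to 1486 ± 72.9 TPM. In each of these genes all iSB09 samples lay above all mock samples.

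Abundant transcripts outside the lists also fell. GSR2, a cytosolic glutamine synthetase, had 911, 988 and 894 TPM under mock and 231, 228 and 222 TPM under iSB09. ASN2, an asparagine synthetase, fell from 437 ± 56.2 to 129.9 ± 16.8 TPM, MS2, a methionine synthase, from 503 ± 24.7 to 229 ± 8.33 TPM, and MTO3, an S-adenosylmethionine synthetase that overlaps AT3G17380, from 926 ± 19.4 to 301 ± 21.7 TPM. The RNA-binding proteins GRP7 and CCR1, known as slave oscillator components of the circadian clock, fell from 2446 ± 316 to 989 ± 64.3 TPM and from 843 ± 40.9 to 271 ± 25.4 TPM. EARLI1 and AZI1, neighbouring lipid-transfer-like genes of defense priming and cold, fell from 2399 ± 330.1 to 457 ± 41.8 TPM and from 1561 ± 271 to 539 ± 98 TPM, and EARLI1 overlaps AT4G12485.

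The responding genes were short in exon number. Of the genes called up and down, 21.6% and 25.1% had a single exon, against 14.7% of all genes tested, and the median number of exons was 3 and 3 against 5. These are descriptions, and no test was made of them.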
